A study of Mus musculus with 15 samples.

Results

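The neuromuscular junction and denervation genes examined here are 9 genes, namely the 5 muscle acetylcholine receptor subunits Chrna1, Chrnb1, Chrnd, Chrng and Chrne, the synaptic organizer Musk, the synaptic enzyme Ache, the adhesion molecule Ncam1 and the transcription factor Runx1. They were chosen by name, and every probe set that the platform annotation assigns to one of these symbols alone was taken. This gave 20 probe sets of the 22626 on the array that are not controls, and 9 of the 12393 genes with a symbol of their own. Chrna1, Chrnb1, Chrnd, Chrne, Musk and Ache had 1 probe set each, Chrng had 3, Runx1 had 5 and Ncam1 had 6.

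Gastrocnemius muscle was profiled in 3 groups of 5 mice, with 1 Affymetrix MOE430A array per mouse. Old CR mice were 25 months old and had been kept on a calorie restricted diet for life. Old mice were 25 months old and young mice were 5 months old, and both received the control diet. All mice were male C57BL/6NHsd and were housed one to a cage from early life. The control ration itself lay somewhat below free feeding, and the restriction was meant to lower energy and leave the supply of protein and micronutrients much as in controls. By design, old CR mice therefore differed from old mice in diet only, and from young mice in both age and diet. The RNA came from whole muscle, in which fewer cells of a type and less RNA per cell cannot be told apart. No further genotype or agent was part of the design.

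At the neuromuscular junction the motor nerve ending releases acetylcholine onto receptors packed beneath it in the muscle fiber membrane. Agrin from the nerve acts through the receptor kinase Musk to keep the receptors clustered, and a few nuclei under the ending make most of the receptor mRNA. When a fiber loses its nerve, nuclei along its whole length begin to transcribe receptor subunit genes, and in rodents Ncam1 and Runx1 are induced as well. The myogenic factors MyoD and myogenin act on such genes through E-boxes, while ETS factors that answer to neuregulin act through an element called the N-box.

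Promoter sequences of 4 receptor subunits are shown as examples of E-boxes and N-boxes. The part of these elements in the subunit values below was not tested. Both kinds of element are known from receptor subunit genes, which does not mean that each gene has both. Each run is 300 bases, with 250 before and 50 after the annotated RefSeq start site, 5′ to 3′ on the gene's own strand in build GRCm38.p6. Capitals mark an E-box, CANNTG, or an N-box, CCGGAA. Chrna1 is on the minus strand at chr2:73580289-73580588, Chrnb1 on the minus strand at chr11:69795888-69796187, Chrng on the plus strand at chr1:87205561-87205860 and Chrne on the minus strand at chr11:70619145-70619444.
Chrna1: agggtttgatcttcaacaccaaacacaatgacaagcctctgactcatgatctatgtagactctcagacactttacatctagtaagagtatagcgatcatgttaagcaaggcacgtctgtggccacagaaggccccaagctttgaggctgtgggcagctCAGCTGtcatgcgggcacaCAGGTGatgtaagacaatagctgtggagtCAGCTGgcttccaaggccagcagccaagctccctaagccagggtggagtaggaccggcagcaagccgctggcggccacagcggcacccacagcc
Chrnb1: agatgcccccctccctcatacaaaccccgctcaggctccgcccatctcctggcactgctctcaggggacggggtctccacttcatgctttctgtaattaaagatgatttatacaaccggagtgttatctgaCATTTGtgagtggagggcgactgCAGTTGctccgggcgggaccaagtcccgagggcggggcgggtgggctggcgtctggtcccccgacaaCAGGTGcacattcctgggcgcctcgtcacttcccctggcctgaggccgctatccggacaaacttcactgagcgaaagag
Chrng: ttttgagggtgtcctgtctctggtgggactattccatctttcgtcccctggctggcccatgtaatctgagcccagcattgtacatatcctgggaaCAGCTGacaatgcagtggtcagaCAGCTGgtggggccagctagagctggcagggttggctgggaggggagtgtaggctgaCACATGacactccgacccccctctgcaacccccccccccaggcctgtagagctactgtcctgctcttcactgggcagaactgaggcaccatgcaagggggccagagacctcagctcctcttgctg
Chrne: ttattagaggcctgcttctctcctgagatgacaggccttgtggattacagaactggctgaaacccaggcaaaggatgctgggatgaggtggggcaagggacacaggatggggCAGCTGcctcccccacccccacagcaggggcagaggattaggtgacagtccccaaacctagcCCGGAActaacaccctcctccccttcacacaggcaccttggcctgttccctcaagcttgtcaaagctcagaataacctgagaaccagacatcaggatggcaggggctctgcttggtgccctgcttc

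The Chrna1 window held 3 E-boxes, first bases at -92, -73 and -44 from the start site, and 2 of them read CAGCTG. The Chrnb1 window also held 3 E-boxes, at -119, -96 and -29, but none read CAGCTG. In Chrng 2 of 3 E-boxes read CAGCTG, at -155 and -132. The Chrne window held 1 E-box of that form at -138 and an N-box at -76, and no other window printed here held an N-box. Both strands were searched, and CAGCTG matches are counted among the CANNTG matches. Of all 32851 RefSeq promoter windows of the same length, 72.3% held CANNTG, 16.3% held CAGCTG and 14.9% held CCGGAA, so a match is common and describes the letters only. RefSeq windows were found for 7 of the 9 genes. Musk had 3 E-boxes, Ache had 1, and of the 2 Runx1 windows one held 3 E-boxes and the other an N-box.

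The deposited values are linear intensities scaled so that the trimmed mean of every array is 500, with array medians of 200.6 to 243.5. For the Gapdh controls the log2 ratio of 3′ to 5′ signal, which reflects RNA integrity and labeling, ran from -0.34 to -0.07 in old CR mice, from 0.13 to 0.40 in old mice and from -0.20 to 0.28 in young mice. It differed between old CR and old mice (two-sided exact permutation test, p = 0.00794, the smallest these groups allow, adjusted p = 0.0159 over 6 tests), and between old and young mice had an adjusted p = 0.0595 in the same exact permutation test. The Actb controls differed in both of these comparisons (exact permutation p = 0.00794 in each, adjusted p = 0.0159). Young replicate 3, at 0.28 for Gapdh, lay among the old mice. For Actb it was at -0.17, just below the -0.15 to 0.15 of old mice. Results of Chrnb1, Runx1 and the other gene lists against young mice are also given without it. The other young mice lay below every old mouse for both controls. Fits without young replicate 3 therefore cannot tell age from RNA quality, and they do not remove the quality difference. Of the member probe sets only that of Chrnb1 was called without young replicate 3. The muscle fiber markers marked the tissue as muscle, with summed intensities of 183680 to 252134 in old CR, 156497 to 208323 in old and 195380 to 224061 in young mice. Slow fiber markers summed to 56754 to 83119 in old CR mice, 23752 to 52169 in old mice and 21932 to 60503 in young mice, so that old CR lay above old without overlap. Fibroblast marker sums of 12093 to 15104 in old CR mice lay below the 16001 to 24581 of young mice, with 14260 to 19684 in old mice. Leukocyte marker sums, 13 of 14 symbols measured, of 4435 to 5969 in old CR mice lay below the 6082 to 9037 of old mice, with 4332 to 10166 in young mice. Among these symbols Emr1 and Adgre1 name the same gene. Schwann cell and myelin markers, 8 of 11 measured, summed to 5107 to 6966 in old CR, 6274 to 8048 in old and 7455 to 9062 in young mice, and no marker was at 0. Axon markers, 7 of 8 measured and 5 of them not among the 11313 brighter probe sets of the array, summed to 703 to 1102, 625 to 846 and 778 to 1111 in old CR, old and young mice. The part of RNA quality and of these cell types in the differences below was not tested beyond a fit that took the mean of these Gapdh and Actb values as a covariate. That covariate tracks the old group closely, so the fit cannot cleanly separate RNA quality from age or diet in comparisons with old mice.

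None of the 20 member probe sets was called, at an adjusted p under 0.05 in limma over all probe sets, in any of the 3 comparisons. In old against young muscle 0.265% of all probe sets were called, in old CR against old 4.87%, and in old CR against young 0.0884%. At an unadjusted p under 0.05, 2 member probe sets were higher and 2 lower in old than in young muscle, where 15.5% of all probe sets passed. For old CR against old muscle 2 were higher and 1 lower, with 21.9% of all, and in old CR against young 2 were higher and 1 lower, with 12.1% of all. The groups did not overlap for 1 member probe set in old against young (3.61% of all), for 0 in old CR against old (8.89% of all) and for 2 in old CR against young (3.57% of all). These counts lie near what the whole array gave. The members split in direction, with 4 probe sets above 0 and 16 below in old against young muscle (median log2 difference -0.37, against -0.06 over all probe sets). Between old CR and old muscle 14 were above 0 and 6 below (median 0.31, against 0.06 over all), and the old arrays enter both of these comparisons. Between old CR and young muscle 12 were above and 8 below (median 0.03, against -0.01 over all).

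Spread between mice differed among the member probe sets. The 6 member probe sets among the 11313 of higher mean intensity, those of Chrna1, Chrnb1, Chrne, Musk, Ache and the brightest of Runx1, had a median coefficient of variation between mice of 21.1% in old CR, 21.4% in old and 17.4% in young muscle. For the 14 dimmer ones, which hold Chrnd and all probe sets of Chrng and Ncam1, it was 42.6%, 44.9% and 42.7%. Single probe sets departed from this split, as the dim Ncam1 1426864_a_at had 14.0% in old CR, 13.4% in old and 11.8% in young muscle, and the brighter Runx1 1452531_at 42.1%, 41.1% and 16.7%. The text below uses the brightest probe set of each gene and gives the others beside it.

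**Figure D1:**
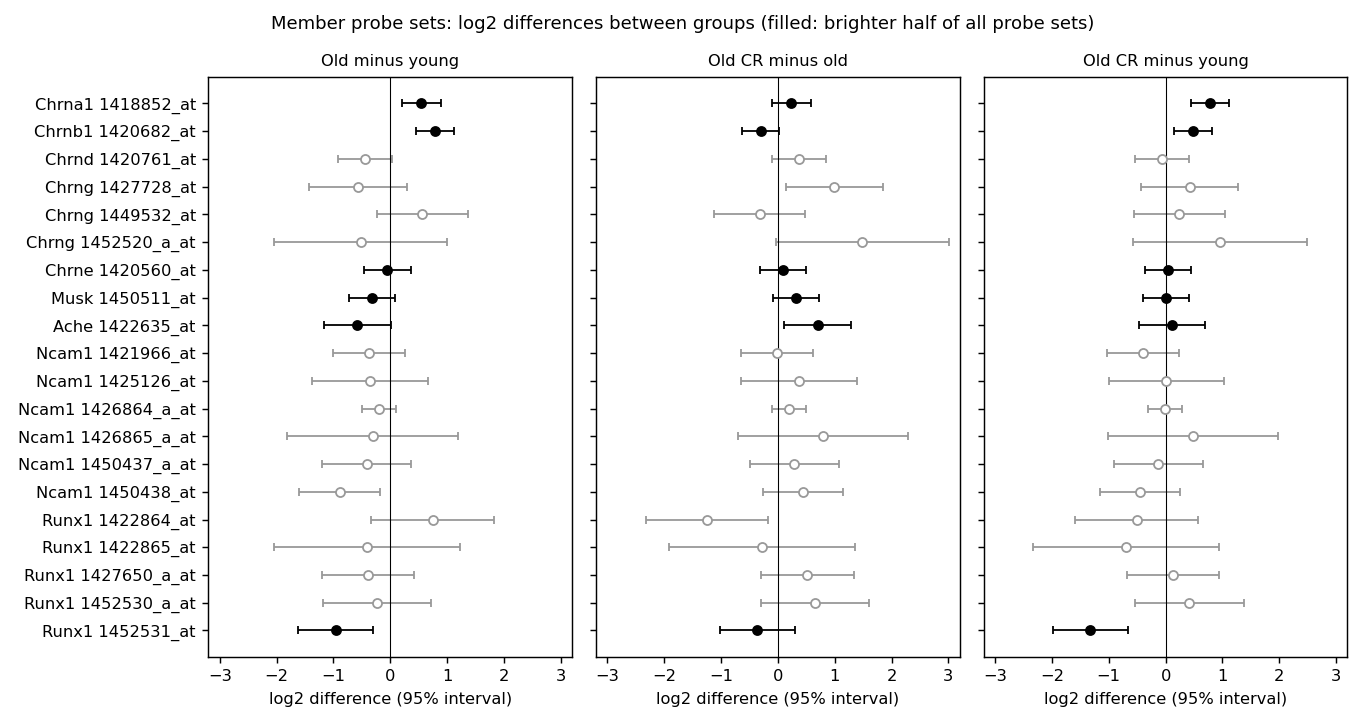
Log2 differences with 95% intervals from limma for the 20 member probe sets (rows), in old minus young, old CR minus old and old CR minus young muscle (panels, n = 5 mice per group). Filled points are among the 11313 brighter probe sets of the array. Chrna1 and Chrnb1 lie right of 0 in the left and right panels, Runx1 1452531_at lies left of 0 in both, and most open points have wider intervals than the filled ones.

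Among the receptor subunits, Chrna1, Chrnb1 and the brightest probe set of Chrng had higher means in old than in young muscle, while Chrnd and Chrne did not, and none of these differences passed. Chrnb1 encodes the beta subunit, which every muscle receptor contains. Its probe set 1420682_at read 737, 672, 669, 903 and 572 in old CR mice, 1016, 900, 686, 880 and 891 in old mice, and 503, 655, 444, 473 and 468 in young mice. Every old mouse lay above every young mouse, and the old CR mice lay between and overlapped both. The old mean was 875 ± 119 and the young mean 509 ± 84.5 (SD, n = 5 each), a 1.72-fold difference (95% interval 1.37 to 2.17, log2 0.79, SE 0.15). The adjusted p of 0.0539 from limma missed the threshold by a narrow margin. Old CR mice, at 711 ± 123, differed from old mice by a log2 difference of -0.31 (95% interval -0.64 to 0.03, adjusted p = 0.267) and from young mice by 0.48 (0.15 to 0.81, adjusted p = 0.227), neither of which passed. Without young replicate 3 the age difference of Chrnb1 was 0.74 and was called (limma, adjusted p = 0.0215), as it was among the 11313 brighter probe sets (adjusted p = 0.0124). Over the 15 fits with 1 array left out, the limma adjusted p ran from 0.0215 to 0.132, and no other of these fits called Chrnb1. Nor was it called with quantile normalization, only the compared groups or a replicate block. With the 3′ to 5′ covariate the age difference was 0.68 with an adjusted p of 0.663.

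Chrna1 encodes the alpha subunit, which carries the main part of the acetylcholine binding sites. Probe set 1418852_at read 862, 888, 658, 752 and 714 in old CR mice, 634, 606, 461, 821 and 827 in old mice, and 416, 464, 455, 428 and 480 in young mice. The young mice formed a tight group, all 5 old CR mice lay above it, and of the old mice only replicate 3 fell within its range. Old CR muscle averaged 775 ± 97.8 and young muscle 449 ± 26.2 (SD, n = 5 each), a 1.72-fold difference (95% interval 1.36 to 2.18, log2 0.78, SE 0.16, limma adjusted p = 0.0709). Old muscle averaged 670 ± 155, a log2 difference from young of 0.55 (0.21 to 0.89, adjusted p = 0.123). The difference between old CR and old muscle was 0.23 (95% interval -0.11 to 0.58, adjusted p = 0.419). So in old CR mice the Chrna1 value stood above old mice on average and the Chrnb1 value below them, with intervals that include 0 for both. Among the brighter probe sets Chrna1 passed in old against young muscle (adjusted p = 0.0458, with 5.06% of these called) and in old CR against young (adjusted p = 0.0177, with 1.80% called). With the covariate the old CR minus young difference of Chrna1 was 0.80 (adjusted p = 0.166) and the old minus young difference 0.50 (adjusted p = 0.803).

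Chrne and Chrng encode the subunits that tell the adult receptor from the fetal one, the epsilon subunit replacing gamma after birth at innervated synapses. Chrne read 475, 342, 287, 342 and 307 in old CR mice, 282, 367, 391, 241 and 365 in old mice, and 382, 353, 383, 355 and 231 in young mice. The 3 groups overlapped throughout, and young replicate 5 lay well below the other young mice. The log2 differences of Chrne were -0.05 in old against young (95% interval -0.46 to 0.36), 0.09 in old CR against old (-0.32 to 0.50) and 0.04 in old CR against young (-0.37 to 0.45). None of the Chrne differences passed, and whether they differ from those of Chrna1 or Chrnb1 was not tested.

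Chrng, the gamma subunit gene that is silenced in innervated adult fibers and returns on denervation, was dim at all 3 probe sets. The brightest, 1449532_at, read 39.3, 103, 53.5, 48.3 and 95.8 in old CR mice, 107, 93.2, 81.4, 48.2 and 77.4 in old mice, and 25.0, 43.1, 88.6, 90.2 and 50.4 in young mice. Values spread up to several fold within each group and the groups overlapped. Its log2 difference in old against young was 0.56 (95% interval -0.24 to 1.36, adjusted p = 0.494). The other probe sets ran the opposite way, with -0.57 at 1427728_at and -0.52 at 1452520_a_at. For old CR against old muscle they gave 0.99 and 1.48, against -0.32 at the brightest, and 1427728_at had an unadjusted p of 0.0262 (limma, adjusted p = 0.164). Old CR replicate 7 read 78.1 at that probe set and the other old CR mice 14.4 to 26.7, and without it the difference was 0.63. The probe sets of Chrng thus gave no single direction, and their mean had log2 differences of -0.18 in old against young (adjusted p = 0.859) and 0.72 in old CR against old (adjusted p = 0.274).

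Chrnd encodes the delta subunit, present in both fetal and adult receptors. Its probe set, 1420761_at, was dim, at 15.9, 19.2, 27.2, 25.8 and 26.5 in old CR mice, 18.2, 15.5, 12.2, 23.1 and 19.3 in old mice, and 20.7, 33.3, 28.5, 18.5 and 19.8 in young mice. The groups overlapped, with old replicate 3 lowest and young replicate 2 highest. The log2 difference was -0.45 in old against young (95% interval -0.92 to 0.03, adjusted p = 0.353), 0.38 in old CR against old (-0.10 to 0.85, adjusted p = 0.344) and -0.07 in old CR against young (-0.54 to 0.40). None of these differences of Chrnd passed.

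**Figure D2:**
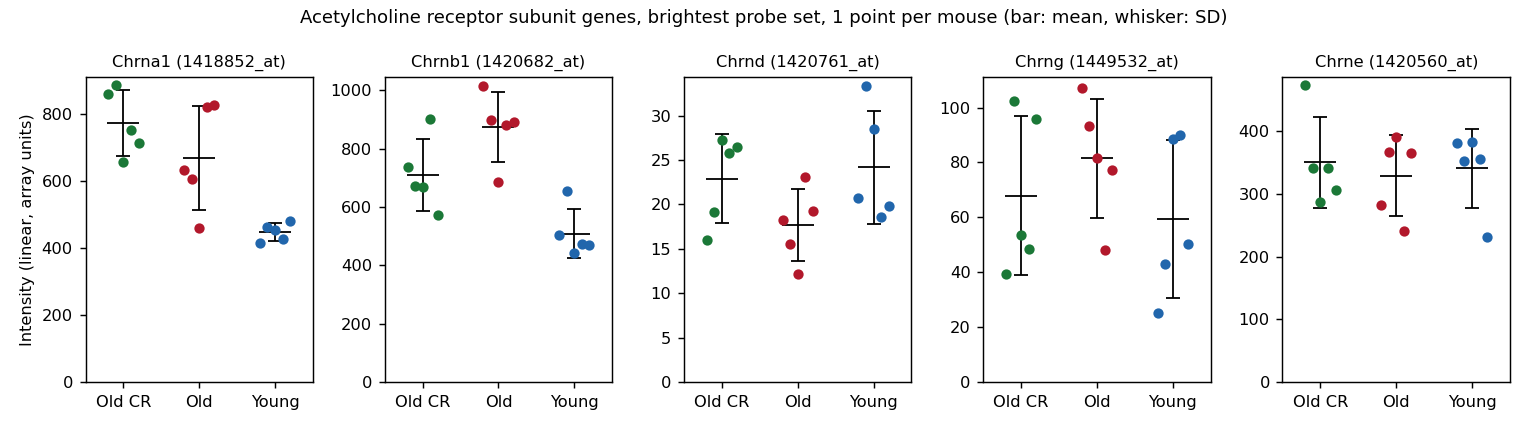
Linear intensity of the brightest probe set of each receptor subunit gene in old CR, old and young muscle, 1 point per mouse, with the group mean (bar) and SD (whisker). For Chrnb1 all old mice (686 to 1016) lie above all young mice (444 to 655), for Chrna1 all old CR mice (658 to 888) lie above the young mice (416 to 480), and for the other subunits the groups overlap.

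Musk and Ache, the organizer and the enzyme of the synapse, had lower means in old muscle than in the other groups. Ache breaks down acetylcholine in the synaptic cleft. It read 532, 494, 286, 405 and 317 in old CR mice, 119, 247, 266, 315 and 353 in old mice, and 324, 436, 278, 400 and 418 in young mice. Old replicate 1 was by far the lowest of all 15 mice, and the groups overlapped. Old CR muscle averaged 407 ± 107 and old muscle 260 ± 89.0 (SD, n = 5 each), a log2 difference of 0.70 (95% interval 0.11 to 1.28, unadjusted p = 0.0235, limma adjusted p = 0.155). Against the 371 ± 67.3 of young mice, old muscle differed by -0.58 (-1.17 to 0.0035, adjusted p = 0.326) and old CR muscle by 0.11 (-0.48 to 0.70, adjusted p = 0.914). Without old replicate 1 the differences of Ache were 0.44 in old CR against old and -0.32 in old against young. With the 3′ to 5′ covariate, which tracks the old group closely, they were 0.04 and -0.10. Old replicate 1 had the highest Gapdh 3′ to 5′ value of the series, 0.40. The part of RNA quality in the Ache values was not tested beyond this fit.

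Musk, the receptor kinase that responds to agrin, read 189, 248, 323, 272 and 330 in old CR mice, 219, 261, 187, 239 and 172 in old mice, and 352, 294, 206, 246 and 251 in young mice. The groups overlapped, with no old mouse above 261. Old muscle, at 216 ± 36.8, differed from young muscle, at 270 ± 55.8, by a log2 difference of -0.32 (95% interval -0.72 to 0.09, adjusted p = 0.448). Old CR muscle, at 273 ± 57.8, differed from old muscle by 0.33 (-0.08 to 0.73, adjusted p = 0.338) and from young by 0.01 (-0.39 to 0.42). With the covariate the sign turned in the first comparisons of Musk, to 0.06 in old against young and -0.18 in old CR against old.

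Ncam1, an adhesion molecule that is restricted to the synapse in adult fibers and spreads over the fiber on denervation, was dim at all 6 probe sets. The brightest, 1425126_at, read 119, 143, 155, 53.4 and 36.9 in old CR mice, 155, 27.7, 52.1, 70.5 and 91.3 in old mice, and 101, 91.8, 69.7, 58.7 and 131 in young mice. The ranges overlapped almost completely. Its log2 difference in old against young was -0.36 (95% interval -1.37 to 0.66, adjusted p = 0.764), and those of the other 5 probe sets were also below 0, between -0.20 and -0.89. The lowest was at 1450438_at (-0.89, limma adjusted p = 0.209), the dimmest of them, where young replicate 2 read 25.2 and the other young mice 6.44 to 9.27. Without that mouse the difference was -0.54. The mean of the 6 probe sets of Ncam1 gave -0.43 in old against young (limma adjusted p = 0.348), 0.34 in old CR against old (adjusted p = 0.354) and -0.08 in old CR against young (adjusted p = 0.918). Schwann cells also make Ncam1, and their marker sums, given above, did not overlap between old CR and young mice. Their part in the Ncam1 values was not tested.

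**Figure D3:**
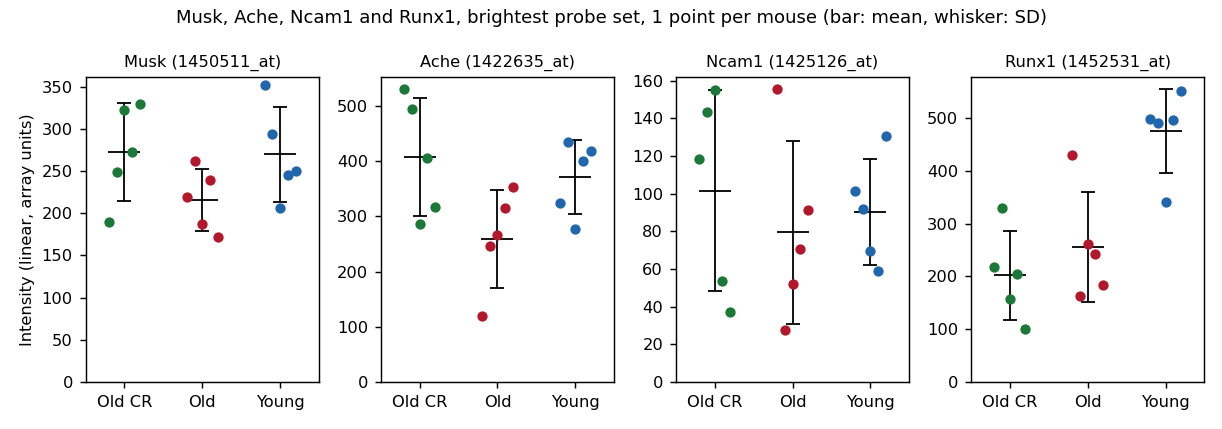
Linear intensity of the brightest probe set of Musk, Ache, Ncam1 and Runx1 in old CR, old and young muscle, 1 point per mouse, with the group mean (bar) and SD (whisker). For Runx1 all old CR mice (101 to 330) lie below all young mice (340 to 552), and for Ache old replicate 1 (119) lies below every other mouse.

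Runx1, a transcription factor induced in denervated muscle of rodents, had its largest differences in the opposite direction from Chrna1 and Chrnb1 at its brightest probe set. This probe set, 1452531_at, read 218, 330, 157, 204 and 101 in old CR mice, 429, 163, 261, 242 and 183 in old mice, and 498, 491, 340, 496 and 552 in young mice. No old CR mouse reached the lowest young mouse, replicate 3, and only replicate 1 of the old mice did. Old CR muscle averaged 202 ± 84.9 and young muscle 475 ± 79.4 (SD, n = 5 each), a log2 difference of -1.32 (95% interval -1.98 to -0.67, limma adjusted p = 0.115). Old muscle averaged 256 ± 105 and differed from young by -0.96 (-1.62 to -0.31, adjusted p = 0.150), and old CR differed from old by -0.36 (-1.02 to 0.29, adjusted p = 0.528). Without young replicate 3 the Runx1 differences from young were -1.44 in old CR mice (adjusted p = 0.134) and -1.08 in old mice (adjusted p = 0.0804). Among the brighter probe sets the old CR minus young difference of Runx1 passed, with an adjusted p of 0.0293. With the covariate it was -1.11 (adjusted p = 0.270), while the old minus young difference of Runx1 was -1.53 (adjusted p = 0.545) and the old CR minus old difference turned to 0.42 (adjusted p = 0.934). Fibroblast marker sums, given above, were also lower in every old CR mouse than in any young mouse, and their part in the Runx1 values was not tested.

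The other Runx1 probe sets did not repeat this pattern. The next brightest, 1452530_a_at, is annotated to the same transcript and read 120, 339, 254, 276 and 103 in old CR mice, 185, 92.5, 251, 92.1 and 77.1 in old mice, and 115, 112, 320, 88.7 and 190 in young mice. Its groups overlapped, and its log2 difference was -0.24 in old against young, 0.66 in old CR against old and 0.42 in old CR against young. The dimmer 1422864_at gave 0.74 in old against young and -1.25 in old CR against old (limma adjusted p = 0.165), with 57.0 and 50.9 in old replicates 1 and 3. The remaining probe sets, 1422865_at and 1427650_a_at, gave -0.41 and -0.39 in old against young. Averaged over its 5 probe sets, Runx1 had log2 differences of -0.25 in old against young (adjusted p = 0.654), -0.14 in old CR against old (adjusted p = 0.763) and -0.39 in old CR against young (adjusted p = 0.539). Only at 1452531_at were 2 of the groups without overlap, those of old CR and young mice.

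**Figure D4:**
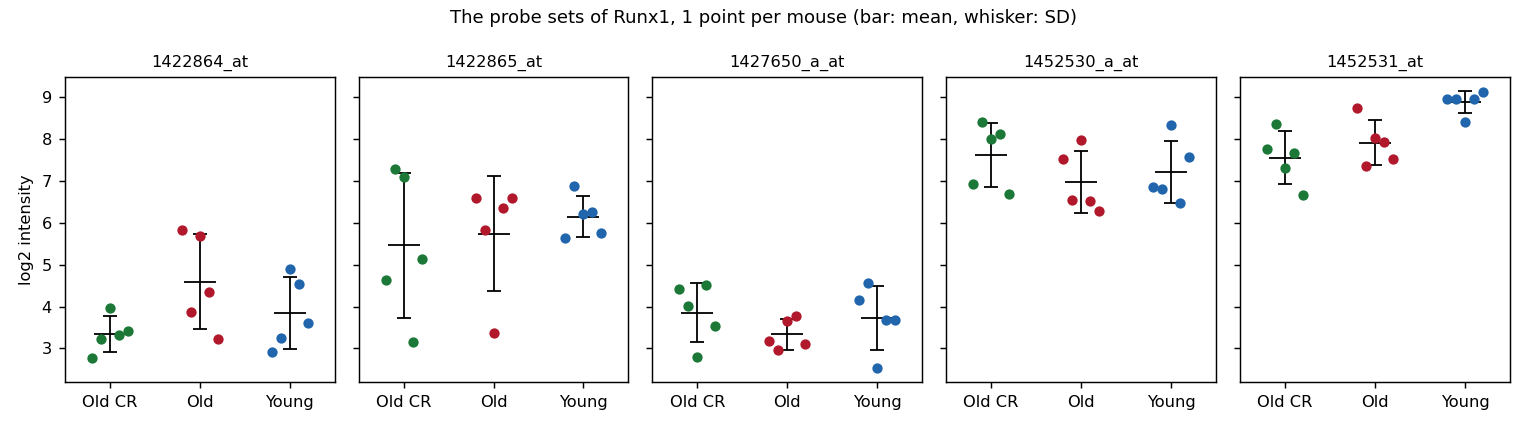
Log2 intensity at the 5 probe sets of Runx1 in old CR, old and young muscle, 1 point per mouse, with the group mean (bar) and SD (whisker). Old CR and young mice do not overlap at 1452531_at (log2 difference -1.32), and the groups overlap at the other 4.

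By their brightest probe sets, 3 of the 9 genes were above 0 in old against young muscle (Chrna1, Chrnb1 and Chrng) and 6 below, with a median log2 difference of -0.32. Between old CR and old muscle 6 were above and 3 below (Chrnb1, Chrng and Runx1), with a median of 0.23. Between old CR and young muscle 7 were above and 2 below (Chrnd and Runx1), with a median of 0.04.

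Of 62 other gene symbols listed for the junction and for denervation, 51 were measured. Each was taken by its brightest probe set, while the shares in brackets are over all probe sets, bright and dim. Tid1 and Plec1, counted as not measured, are older symbols of Dnaja3 and Plec, which were measured. In old against young muscle 1 was called higher and none lower (0.265% of all probe sets were called), in old CR against old 2 were called higher and 4 lower (4.87% of all), and in old CR against young none was called in limma (0.0884% of all). At an unadjusted p under 0.05 there were 11 higher and 3 lower in old against young (15.5% of all), 5 higher and 10 lower in old CR against old (21.9% of all) and 6 higher and 5 lower in old CR against young (12.1% of all). The median log2 differences of the 51 genes were 0.01, -0.13 and -0.02 in these comparisons. The gene that rose with age was Cdkn1a, the cell cycle inhibitor p21, which is induced in denervated muscle and in many other settings. It averaged 1122 ± 375 in old and 396 ± 57.1 in young mice (SD, n = 5 each, log2 1.46, SE 0.19, limma adjusted p = 0.0150). In old CR mice Cdkn1a fell to 621 ± 73.2, a log2 difference from old mice of -0.81 (adjusted p = 0.0304). Neither call of Cdkn1a held in the mean of its probe sets (1.08, adjusted p = 0.172, and -0.31, adjusted p = 0.661), and the age call ended without young replicate 1 (adjusted p = 0.0549) and the CR call without any of 4 arrays (adjusted p 0.0546 to 0.0669). Without young replicate 3 the genes called in old against young muscle numbered 6, with Etv5 lower and Crk, Dag1, Syne1, Cdkn1a and Igfbp5 higher in old mice, where 1067 probe sets were called in all. With the 3′ to 5′ covariate no probe set of the array was called in old against young or old CR against old muscle, and Cdkn1a kept differences of 1.48 (adjusted p = 0.452) and -0.83 (adjusted p = 0.788).

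The list of denervation response genes, 18 of 21 measured, was chosen with earlier results of these data known, so its directions are a description. In old against young muscle 14 of its genes were above 0 and 4 below. Their median log2 difference, by the brightest probe set of each gene, was 0.36, against -0.06 over all probe sets, bright and dim. Sln, the calcium pump inhibitor sarcolipin, had a log2 difference of 2.28 (SE 0.79, adjusted p = 0.186), and Myh3, embryonic myosin, 1.42 (SE 0.43, adjusted p = 0.136). Gadd45a, a stress gene that denervation induces strongly in mouse muscle, had 1.12 (SE 0.34, adjusted p = 0.135). Myod1 and Myog, the myogenic factors that act on E-boxes, had 0.60 (adjusted p = 0.191) and 0.49 (adjusted p = 0.422). None of these genes passed. All of them lay above 0, and none of the 4 genes below 0 is named here. Sln and Myog were picked for mention after their values were seen. In old CR against old muscle 13 of the 18 were below 0 and 5 above, with a median of -0.23, against 0.06 over all probe sets. Igfbp5, a binding protein of insulin-like growth factors, fell to 2850 ± 365 in old CR mice, against 7480 ± 977 in old mice (log2 -1.39, SE 0.19, limma adjusted p = 0.00511), and had a difference of -0.71 with the covariate (adjusted p = 0.785). Myod1 had -0.70 (adjusted p = 0.0727) and Myog 0.14 in this comparison. Neither passed, and whether Myod1 and Myog differ from each other was not tested.

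**Figure D5:**
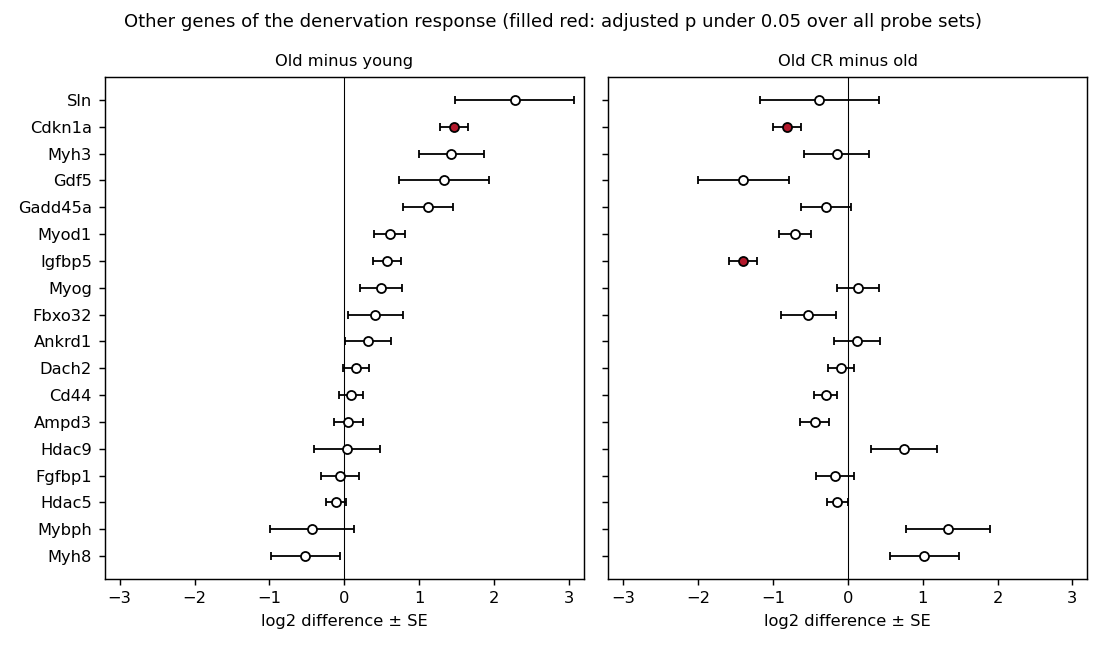
Log2 difference ± SE from limma for the 18 measured genes of the denervation response list, in old minus young (left) and old CR minus old muscle (right, n = 5 mice per group). Red points passed at an adjusted p under 0.05, Cdkn1a on the left (1.46) and Cdkn1a (-0.81) and Igfbp5 (-1.39) on the right, and both panels share the old arrays.

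Of the synapse assembly genes, 10 of 13 symbols measured, none was called in any comparison in limma. At an unadjusted p under 0.05 there were 1 higher and 0 lower in old against young, 0 higher and 1 lower in old CR against old and 1 of each in old CR against young. Agrn, which encodes agrin, averaged 222 ± 72.2 in old CR and 394 ± 37.4 in old mice (log2 -0.87, SE 0.27, limma adjusted p = 0.0755). Crk, an adaptor that acts below Musk, had a log2 difference of 0.55 in old against young muscle (SE 0.14, adjusted p = 0.0923). The mean of the 5 Crk probe sets gave 0.20 (limma adjusted p = 0.604). Rapsn, which anchors the receptors, had 0.14 in old CR against old. Among the genes of the synaptic cytoskeleton and basal lamina, 15 of 17 symbols measured, 3 were called in old CR against old muscle. Nes, the filament protein nestin that is enriched at the junction, rose to 1068 ± 188 in old CR mice, against 615 ± 65.2 in old mice (log2 0.78, SE 0.16, limma adjusted p = 0.0164). Dag1, which encodes dystroglycan, fell to 2496 ± 176 against 4058 ± 359 in old mice (log2 -0.70, adjusted p = 0.0162), and Nid2, a basal lamina nidogen, fell to 111 ± 30.1 against 275 ± 107 (log2 -1.25, adjusted p = 0.0452). Neither Nes nor Dag1 was called in the mean of its probe sets (adjusted p = 0.0902 and 0.0822). Nes and Dag1 stayed called with any 1 array left out, while the call of Nid2 ended without any of 12 arrays (adjusted p 0.0538 to 0.101) and its difference was 0.40 with the covariate (adjusted p = 0.917). With the covariate Dag1 had -0.13 (adjusted p = 0.954) and Nes 0.69 (adjusted p = 0.788). Syne1, a nuclear envelope protein of synaptic nuclei, had 0.69 in old against young (adjusted p = 0.0659) and -0.53 in old CR against old (adjusted p = 0.0581). The mean of the Syne1 probe sets gave 0.38 (limma adjusted p = 0.238) and -0.41 (adjusted p = 0.130).

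Of the neuregulin and ETS genes, 8 of 9 measured, Etv5 was called. Etv5 is an ETS factor that acts on N-boxes such as the one printed for Chrne. It rose to 325 ± 17.3 in old CR mice, against 186 ± 42.3 in old mice (log2 0.84, SE 0.20, limma adjusted p = 0.0300), and had -0.62 in old against young muscle (adjusted p = 0.148). The call of Etv5 ended without any of 7 arrays (adjusted p 0.0523 to 0.0704), and its difference was 0.49 with the covariate (adjusted p = 0.881). Chrne, with the N-box, had 0.09 and -0.05 in the same comparisons, and a link between Etv5 and Chrne was not tested. No gene of the muscle sodium channel list was measured with a symbol of its own.

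The probe sets most like the members in pattern were taken for the member of smallest p in each of the first comparisons, by Pearson correlation of log2 intensity over the 15 arrays, among 10378 of the brighter probe sets with 1 symbol. For Chrnb1 these were Stk26 (r = 0.854), Spint2 (0.846), Etnk1 (0.823), Dnajc9 (0.806) and Lamp1 (0.798). For Ache they were Atp1b2 (r = 0.847), Csnk1d (0.841), Josd2 (0.834), Irf3 (0.832) and Plekhj1 (0.825). The arrays share groups and differ in 3′ to 5′ signal, so these values are a description, and no other member was among either 5.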

How the data were processed

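Poly(A)+ RNA of gastrocnemius was labeled from an oligo-dT primer and hybridized by the authors to 15 MOE430A arrays, each scanned repeatedly and averaged. The deposited values are linear intensity per probe set. The processing notes name RMA and MAS5, versions not given in the sources used here, and the values have the form of MAS5 signals, since every array has the same mean after trimming 2% at each end. Detection calls were not used here. Of 22690 probe sets, 64 controls were left out. Of the rest, 20380 carried 1 symbol, 691 several and 1555 none. Log2 intensity, with no pseudocount, was fitted with limma 3.58.1 in R 4.3.3, with all 3 groups in 1 model, p-values adjusted by Benjamini-Hochberg over 22626 probe sets and calls at 0.05. The code was tested on simulated data. Tables and figures used Python 3.11.15, pandas 2.3.3, SciPy 1.17.1 and Matplotlib 3.10.9.

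Every member probe set is named, and of the other lists the called genes and the 3 of smallest p per comparison may be named. Rapsn, Sln, Myog and Sntb2 fall outside this rule and were chosen after their values were seen. The brightest probe set stands for a gene. The members and lists were chosen with earlier results of these data known. The alternatives were only the brighter 11313 probe sets, median centering, quantile normalization, an offset of 50, only the compared groups, a variance trend, weights per array, a replicate block, a threshold of 0.10, the 3′ to 5′ covariate, each array left out in turn and, chosen after seeing the data, the mean of a gene's probe sets, and the covariate and left-out arrays for the other lists. Same-numbered mice did not deviate together, with correlations of -0.28 to 0.09. The labels call the mice biological replicates, and 5 arrays a group limit the precision.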

Additional observations from a re-analysis of the deposited data

Results flagged for a closer look

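Within the 60 groups of 5 mice formed by the 20 member probe sets and the 3 groups, 6 held a mouse far from the others, judged on the log2 scale by its gap to the nearest mouse as a share of the group's whole range, with Dixon's critical value of 0.71. Chance alone flags about 1 group in 20. Chrne in young replicate 5 read 231, with the other young mice at 353 to 383 (gap share 0.839). Runx1 at 1452531_at read 340 in young replicate 3, with the others at 491 to 552 (0.759). Runx1 at 1422865_at read 10.3 in old replicate 3, with the others at 56.4 to 96.4 (0.760). Of the Ncam1 probe sets, 1426865_a_at read 26.6 in old CR replicate 3, with the others at 92.4 to 120 (0.827). Ncam1 at 1450438_at read 25.2 in young replicate 2, with the others at 6.44 to 9.27 (0.732), and at 1421966_at 20.9 in young replicate 5, with the others at 28.7 to 32.2 (0.732).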

How the results depend on the processing

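In old against young muscle the count of member probe sets called was 0, and became 2 among the brighter probe sets (Chrna1 and Chrnb1) and 1 (Chrnb1) with arrays centered on their median, an offset of 50, a variance trend with robust estimation, array weights or an adjusted p under 0.10. In that order these alternatives called 572, 44, 226, 418, 770 and 380 probe sets in all, against 60. Leaving out each array in turn gave 0 to 1, with Chrnb1 called without young replicate 3, where 1067 were called in all. In old CR against young muscle the count of 0 became 2 among the brighter probe sets and with the variance trend (Chrna1 and Runx1 in each), and 1 with the offset or the looser threshold (Chrna1), with 204, 151, 90 and 99 called in all against 20, and stayed at 0 with any array left out. In old CR against old muscle it was 0 under all these alternatives. With the replicate number as a block, 0 member probe sets were called in each comparison, and over all probe sets 0 in old against young, 4 in old CR against old and 0 in old CR against young, against 60, 1102 and 20 without it. Of the other genes of the junction lists, the 1 called in old against young muscle became 0 with the mean of each gene's probe sets or the covariate and 0 to 6 with an array left out (6 without young replicate 3). The 6 called in old CR against old became 4 with the mean of each gene's probe sets, 0 with the covariate and 3 to 8 with an array left out (3 without old CR replicate 5 or 6). The 4 called by the mean included Sntb2 (-0.52, limma adjusted p = 0.0246), whose brightest probe set was not called (-0.32, adjusted p = 0.501). The 0 in old CR against young stayed 0. Over 1467 values of single member probe sets under an alternative, 14 passed the threshold and 67 changed sign without a call. Of these sign changes 49 were at dimmer probe sets, near the share of such probe sets, 14 of 20, among the members. No member was called to begin with, so no call could be lost. The covariate tracks the old group closely, and its fits called 0, 0 and 8 probe sets in all. Precision varied among the members, with standard errors of 0.14 (Ncam1 1426864_a_at) to 0.76 (Runx1 1422865_at) on the log2 scale.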
